A study of Mus musculus with 30 samples.

Results

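The 40 genes described here encode proteins that make ribosomes, and they were taken by symbol from a list of nucleolar and ribosome assembly factors. All 40 were found among the 11275 genes of the bone marrow table, the 11740 of the LSK table and the 20619 of the stromal table. By role, 3 belong to the box C/D snoRNP, 5 to the H/ACA snoRNP and its chaperone, 2 are abundant nucleolar proteins, 5 serve RNA polymerase I and rDNA transcription, 10 assemble the small subunit and 15 assemble the large subunit.

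Ribosome biogenesis starts in the nucleolus, where RNA polymerase I copies the ribosomal DNA into a long precursor RNA. Small nucleolar ribonucleoproteins (snoRNPs) guide methylation (box C/D) and pseudouridylation (H/ACA) of that precursor, and successive assembly factors fold, cut and export the small and large subunits. Many of these genes are known targets of Myc, and growing blood progenitors are known to need a high output of ribosomes.

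The samples model myeloid neoplasms that follow cytotoxic therapy, in C57BL/6 mice throughout. The 30 RNA-seq libraries form 8 groups. In bone marrow, the 6 AML libraries came from wild type recipients of Egr1+/-, Apc del/+ marrow carrying a Trp53 shRNA, and the 6 MDS libraries from recipients of Egr1+/-, Apc del/+ marrow carrying a luciferase shRNA. The mutagen ENU (N-ethyl-N-nitrosourea) was given to donor and recipient in all 6 MDS mice and in AML 1, 4 and 5, to the recipient alone in AML 6, and to neither in AML 2 and 3. The mutations carried by both groups therefore have no control in the marrow table, and Trp53 knockdown and diagnosis cannot be told apart there. Lin-, Sca1+, Kit+ (LSK) cells, the sorted fraction that holds stem and multipotent progenitor cells, were taken about 2 months after transplantation and before disease, in 3 libraries per group. EAP_E cells came from Egr1+/-, Apc del/+ marrow with the Trp53 shRNA after ENU to donor and recipient, EAP cells from the same kind of marrow without ENU, WT_X cells from wild type marrow with the luciferase shRNA, each transplanted into wild type recipients, and WT cells from untransplanted wild type mice. Stromal cells were grown from compact bone of wild type mice to passage 1 or 2, in 3 libraries from mice given 100 mg/kg ENU 1 month earlier (MSC_ENU) and 3 from mice given 10% ethanol (MSC_mock). The marrow libraries carry different mouse numbers, whereas the LSK and stromal labels name no mouse, so p-values there measure the spread between these samples, which may be technical.

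The marrow tables held 17341986 to 21698808 recovered reads per library, and depth is unknown for LSK and stromal libraries. Trp53, the knocked-down gene, had 57.96, 23.0, 33.44, 26.26, 26.97 and 50.19 in AML 1 to 6, against 43.15 to 97.87 in MDS (limma, log2 difference -0.90, adjusted p = 0.0774), so the marrow groups overlapped. It had 65.55 to 172.6 in the 6 EAP and EAP_E libraries, against 212.7 to 370.4 in the 6 WT_X and WT libraries. For EAP 1 the transplant label names wild type marrow although its genotype and shRNA labels do not, and 65.55, the lowest Trp53 value of the LSK libraries, is that of EAP 1. Apc and Egr1 are carried in a single working copy. Neither had a lower mean in EAP than in WT_X (Apc 8.41 and 6.20, Egr1 415 and 153). Egr1 varied widely, with 75.04, 840.5 and 329.2 in EAP, against 188.2, 137.3 and 133.0 in WT_X. In EAP_E, Egr1 had 308.0, 57.69 and 77.36, and EAP 1, EAP_E 2 and EAP_E 3 lay below every WT_X library. All MDS and AML libraries carry both lesions. WT 2, WT_X 3 and EAP 1 stand apart from the other LSK libraries, as described with the LSK results. Ptprc, the pan-leukocyte gene, had 15.31 in AML 3, against 752.5 to 1219 in MDS. Flt3 and Kit were detected in every LSK library but were lowest in EAP 1. Kit had 65.26 there, against 157.9 to 597.7 in the other LSK libraries, and Flt3 had 61.66, against 195.0 to 727.4. Col1a1 and Col1a2 ranged from 361.3 to 3045 TPM in the stromal libraries, where Cd3e was at 0. Transcripts of other blood cell genes were present there, with S100a8 at 1.434 to 49.39, Csf1r at 1.539 to 5.794 and Ptprc at 0.0565 to 1.286 TPM.

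The start regions of the genes were searched for short motifs because Myc differed between the marrow libraries described below. RefSeq start windows of 300 bases (GRCm38.p6, 250 before and 50 after the listed start) were available for 35 of the 40 genes, and Bop1, Fbl, Npm1, Rrp12 and Rrs1 had none. The E-box CACGTG, which is its own reverse complement and is known to be bound by Myc with its partner Max, stood in 7 of the 35 windows, against 7.15% of 32851 windows in the RefSeq table and 8.27% of the 15769 windows of genes in the tables analysed. The 30 bases around each of those 7 matches are shown on the strand of the gene, with the E-box in capitals.
Imp4: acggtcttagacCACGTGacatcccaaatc
Ltv1: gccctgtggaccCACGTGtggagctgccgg
Tsr1: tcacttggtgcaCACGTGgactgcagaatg
Utp20: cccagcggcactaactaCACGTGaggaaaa
Mybbp1a: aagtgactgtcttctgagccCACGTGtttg
Nop2: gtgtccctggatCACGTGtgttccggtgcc
Pes1: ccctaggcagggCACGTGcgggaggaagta
These lie at chr1:34439696-34439725 (Imp4, plus strand), chr10:13193092-13193121 (Ltv1, minus), chr11:74898092-74898121 (Tsr1, plus), chr10:88826765-88826794 (Utp20, minus), chr11:72441347-72441376 (Mybbp1a, plus), chr6:125131811-125131840 (Nop2, plus) and chr11:3963965-3963994 (Pes1, plus). The E-box began 121 and 60 bases upstream of the listed start in Imp4 and Nop2, and 2 to 40 bases downstream of it in the other 5. By role, 4 of 9 small subunit windows held it, 2 of 13 large subunit windows, 1 of 5 RNA polymerase I windows, and none of the 8 snoRNP and nucleolar protein windows. CCAAT, bound by NF-Y, stood on either strand in 13 of 35 windows (37.1%, against 37.4% of all windows). The Rrp9 window, counted among these 13 and among the 9 small subunit windows, lies 1346 bases from the start of the principal GENCODE transcript of that gene. TATAAA stood in 3 of 35 (8.57% against 13.6%), and the palindromic motif of Nrf1 in 0 of 35 (0.971% of all windows). These matches describe letters in a window and are not evidence of binding.

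The genes differed widely in level, and the order was not the same in the 3 sources. Marrow and LSK values were divided by coding length and stromal values are TPM, so the stromal order rests on another measure. Per kilobase of coding sequence, the highest mean values in marrow were 486.5 for Ncl, 197.8 for Npm1 and 182.9 for Nop10, and the lowest were 10.01 for Noc3l, 9.37 for Utp20 and 6.55 for Ddx18. Ncl (nucleolin) and Npm1 (nucleophosmin) are the main structural proteins of the nucleolus, and Nop10 is a small core protein of the H/ACA snoRNP. In LSK cells the highest were 1772 for Nop10, 999 for Npm1 and 736.2 for Nhp2, another H/ACA core protein, and the lowest were 6.22 for Noc3l, 4.66 for Polr1a and 1.09 for Utp20. In stromal cells the highest were Npm1 at 1297 TPM, Ncl at 191.6 TPM and Nop58 at 118.6 TPM, and the lowest were Polr1b at 14.36 TPM, Rrp12 at 12.1 TPM and Rrp1b at 11.05 TPM. Fbl (fibrillarin), the methyltransferase of the box C/D snoRNP, stood above 93.4% of genes per length in LSK cells and above 93.4% in stromal cells, but above only 26.4% in marrow. Ddx18 likewise stood above 68.8% in LSK cells and 85.1% in stromal cells, but above only 18.0% in marrow. The cause of these low marrow levels was not tested. These shares were taken over 10957 genes in marrow and 11298 in LSK cells, but over 20619 in stromal cells. The stromal shares are therefore not comparable with the others. The tables were scaled separately, so no level was tested between them.

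AML marrow set against MDS marrow differs by diagnosis and by the Trp53 shRNA, which cannot be told apart. ENU was not balanced between the groups either. All MDS donors and recipients were given it, whereas AML 2 and 3 had none and AML 6 had it in the recipient alone. Every one of the 40 genes had a higher mean in AML (background: 52.7% of all 11273 genes tested, and shares of all genes are given over the genes tested in the same fit), by 0.17 (Polr1a) to 1.02 (Noc2l) on the log2(value + 1) scale, with a median of 0.67 against 0.04 over all genes tested. By limma with Benjamini-Hochberg adjustment, however, 0 of 40 passed an adjusted p of 0.05, where 0.994% of all genes were called higher and 2.21% lower. At an unadjusted p under 0.05, 26 of the 40 were higher and none lower, against 15.4% of all genes higher and 13.9% lower. edgeR's quasi-likelihood test on recovered reads also called 0 (2.62% of all genes higher), with 32 higher at an unadjusted p under 0.05, against 22.1% of all genes higher and 9.28% lower at that level. DESeq2 called 25 higher (13.6% of all genes). Limma called 17 without AML 1 (11.3% of all genes) and 5 without AML 2, namely Ddx18, Nop56, Rrp9, Gar1 and Ppan (2.88%). In whole marrow, more cells of a type and more RNA per cell cannot be told apart.

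**Figure D1:**
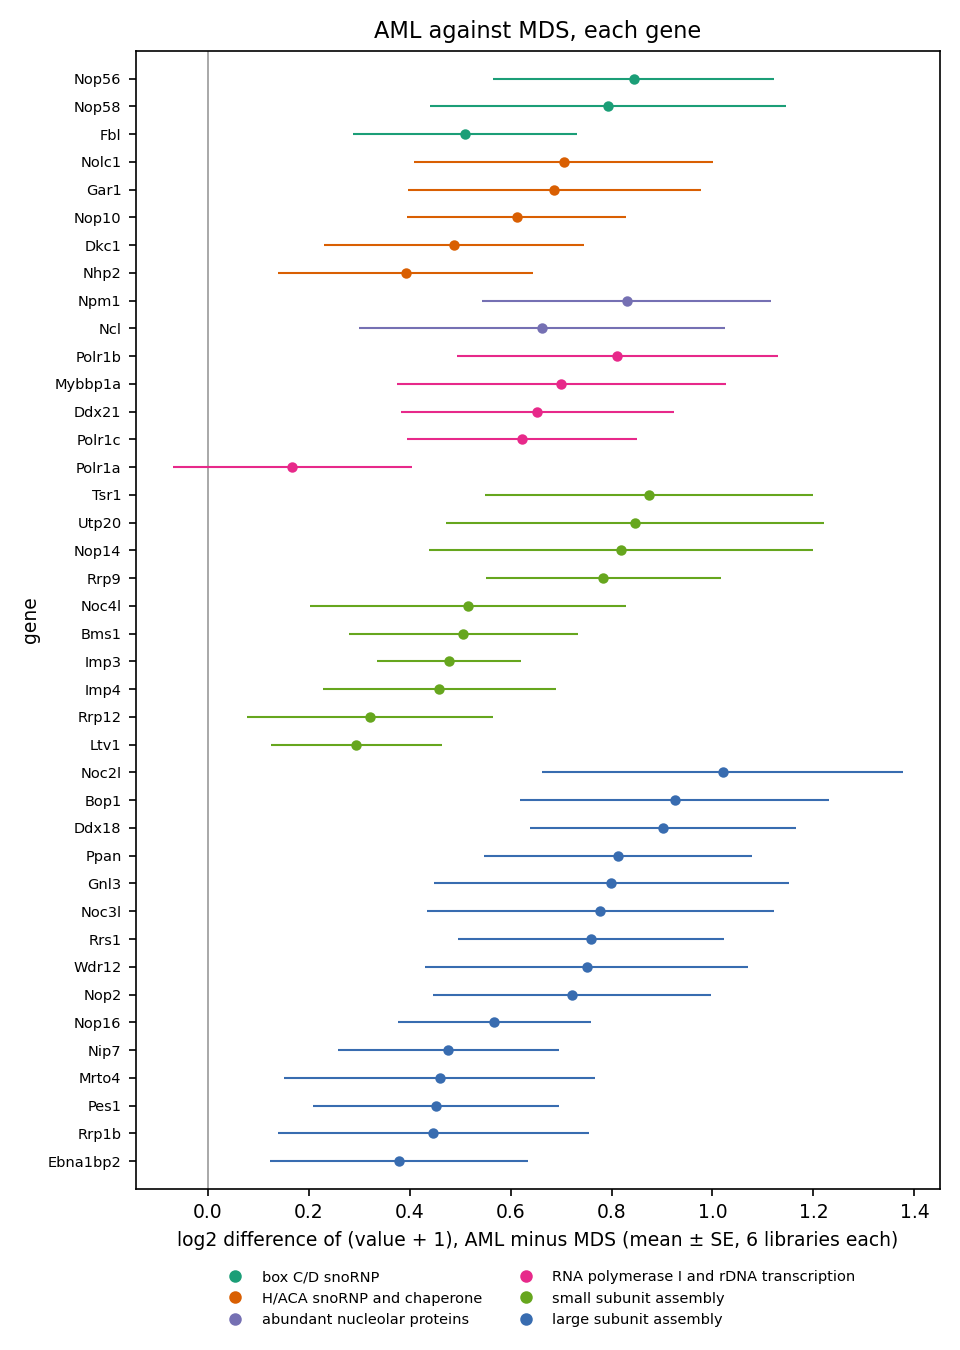
Difference between AML and MDS marrow for each of the 40 genes, as the mean log2(value + 1) in AML minus that in MDS with its standard error, 6 libraries each, ordered and coloured by role. All 40 points lie above 0, from 0.17 for Polr1a to 1.02 for Noc2l, and the standard error bar of Polr1a alone reaches 0.

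All 3 box C/D genes were higher in AML at an unadjusted p under 0.05. Nop56, a core scaffold of the particle, ranged from 72.4 through a median of 130 to 265 in AML, against 67.1, 75.7 and 81.7 in MDS (lowest, median, highest). The AML means of Nop56 were 149 ± 74.9, against 74.6 ± 6.17 in MDS (SD, n = 6 each), with a log2 difference of 0.84 (SE 0.28, limma adjusted p = 0.0882). AML 3 was highest with 265.3 and AML 2, with 72.42, lay inside the MDS range. Its partner Nop58 had 97.83, 70.04, 368.5, 272.8, 250.3 and 157.3 in AML 1 to 6, against 82.4 to 119.8 in MDS. Fbl had 7.86 to 19.8 in AML, against 7.23 to 9.22 in MDS.

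Of the 5 H/ACA genes, 3 were higher in AML at an unadjusted p under 0.05: Nop10, Nolc1 and Gar1. Nop10 had the smallest p of the group, with 26.6, 40.5 and 71.2 in AML and 22.2, 26.5 and 30.9 in MDS (lowest, median, highest; log2 difference 0.61, SE 0.22, limma adjusted p = 0.101). The highest Nop10 value was that of AML 4, and AML 1 and 2 lay within the MDS range. Nolc1, a chaperone that shuttles snoRNPs, had 331.3 in AML 3 and 287.6 in AML 4, against 86.69 to 115.4 in MDS. Dkc1, the pseudouridine synthase mutated in dyskeratosis congenita in humans, had 55.83, 48.07, 144.7, 114.5, 117.0 and 96.82 in AML 1 to 6, against 56.31 to 80.38 in MDS. Both low values of Dkc1 were thus below every MDS library, and the 4 others above.

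The abundant nucleolar proteins showed the same split between AML libraries. Npm1, which is often mutated in human AML, had 119.2, 119.4, 395.8, 337.9, 232.1 and 176.7 in AML 1 to 6, against a lowest of 106, a median of 112 and a highest of 134 in MDS (log2 difference 0.83, SE 0.29, limma adjusted p = 0.0964). Ncl had 668.5, 530.0, 2982, 1556, 1445 and 888.2 in AML 1 to 6, against 635 to 806 in MDS (log2 difference 0.66, SE 0.36, adjusted p = 0.232). AML 3 to 6 exceeded every MDS library for both genes, and AML 2 was below every MDS library for Ncl.

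Among genes of RNA polymerase I and rDNA transcription, 3 of 5 were higher in AML at an unadjusted p under 0.05. Polr1c, a subunit shared with RNA polymerase III, had the smallest p, with 30.8, 36.2 and 71.5 in AML and 25.5, 27.1 and 31.6 in MDS (lowest, median, highest; log2 difference 0.62, SE 0.23, limma adjusted p = 0.108). Only AML 2 lay within the MDS range of Polr1c. Polr1b, one of the large catalytic subunits, reached 117.4 in AML 4 and 107.5 in AML 3, against 25.0 to 37.96 in MDS. Ddx21, an RNA helicase that acts in rRNA transcription and processing, reached 453.1 in AML 4, against 134.3 to 176.4 in MDS. Polr1a, the largest subunit of the enzyme, had the smallest difference of all 40 genes: 83.5, 122 and 223 in AML against 105, 118 and 131 in MDS (log2 difference 0.17, SE 0.24, adjusted p = 0.648). It was above the MDS range in AML 3 and 4 and below it in AML 2 and 6.

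Of 10 small subunit genes, 5 were higher in AML at an unadjusted p under 0.05. Rrp9, a protein of the snoRNP that guides early cleavage of the precursor, had 20.5, 33.8 and 51.0 in AML and 14.1, 18.3 and 21.9 in MDS (lowest, median, highest; log2 difference 0.78, SE 0.23, limma adjusted p = 0.0696). Its AML 1 and 2 values of 20.48 and 21.03 lay within the MDS range. Imp3, a partner of that snoRNP, had 26.77, 32.53, 28.13, 36.47, 42.01 and 32.12 in AML 1 to 6, against a lowest of 20.8, a median of 23.0 and a highest of 26.3 in MDS (log2 difference 0.48, SE 0.14, adjusted p = 0.0703). Its groups did not overlap, and its highest library was AML 5, whereas AML 3, highest for most other genes, was near the low end of AML. Utp20, a large scaffold of the early precursor, had 40.59, 39.85, 228.2, 136.4, 99.52 and 99.23 in AML 1 to 6, against 41.25 to 58.24 in MDS. Tsr1, which acts late on the precursor small subunit, had 91.79 in AML 4 and 81.65 in AML 3, against 18.36 to 27.34 in MDS (log2 difference 0.87, SE 0.33, adjusted p = 0.111). Ltv1, another late factor, ranged only from 44.2 to 75.9 in AML, against 39.7 to 53.3 in MDS.

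Of 15 large subunit genes, 11 were higher in AML at an unadjusted p under 0.05. Ddx18, an RNA helicase, had the smallest p of the 40 genes, with 9.614, 9.524, 26.5, 25.12, 19.56 and 15.43 in AML 1 to 6, against a lowest of 6.70, a median of 8.47 and a highest of 9.70 in MDS (log2 difference 0.90, SE 0.26, limma adjusted p = 0.0683). Its means were 17.6 ± 7.39 in AML and 8.32 ± 1.03 in MDS (SD, n = 6 each), and AML 1 and 2 lay within the MDS range. Ppan, an early assembly factor, had 47.8, 46.05, 136.9, 118.9, 57.51 and 90.98 in AML 1 to 6, against 37.2, 43.5 and 45.5 in MDS (lowest, median, highest; log2 difference 0.81, SE 0.26, adjusted p = 0.0850). Ppan and Imp3 were the 2 of 40 genes whose AML values all exceeded every MDS value, where 1.71% of all genes did so, and none was lower in that way (2.13% of all genes). Noc2l, which escorts the precursor large subunit, had 97.83, 95.6, 500.8, 278.7, 137.4 and 160.7 in AML 1 to 6, against 73.1 to 104 in MDS (log2 difference 1.02, SE 0.36, adjusted p = 0.0990). The value of AML 3 was the furthest from MDS of all 40 genes, at 6.03 times the MDS median. Bop1, Pes1 and Wdr12 form the PeBoW complex that matures the large subunit rRNA. Bop1 reached 203.6 in AML 4, against 43.1 to 68.5 in MDS, and AML 1, 2 and 6 lay within that range. Pes1 reached 115.9 in AML 3, against 40.02 to 58.59 in MDS, but AML 1, 2, 5 and 6 lay within that range. Pes1 was not among the 11 genes (limma unadjusted p = 0.0862, adjusted p = 0.224). Wdr12 reached 70.7 in AML 3, against 16.48 to 21.72 in MDS, but AML 1, with 15.95, was below every MDS library. Mrto4, whose values are uncertain because the annotation names 2 pseudogenes after it that could share its reads, had 12.7 to 54.1 in AML and 14.4 to 19.0 in MDS.

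**Figure D2:**
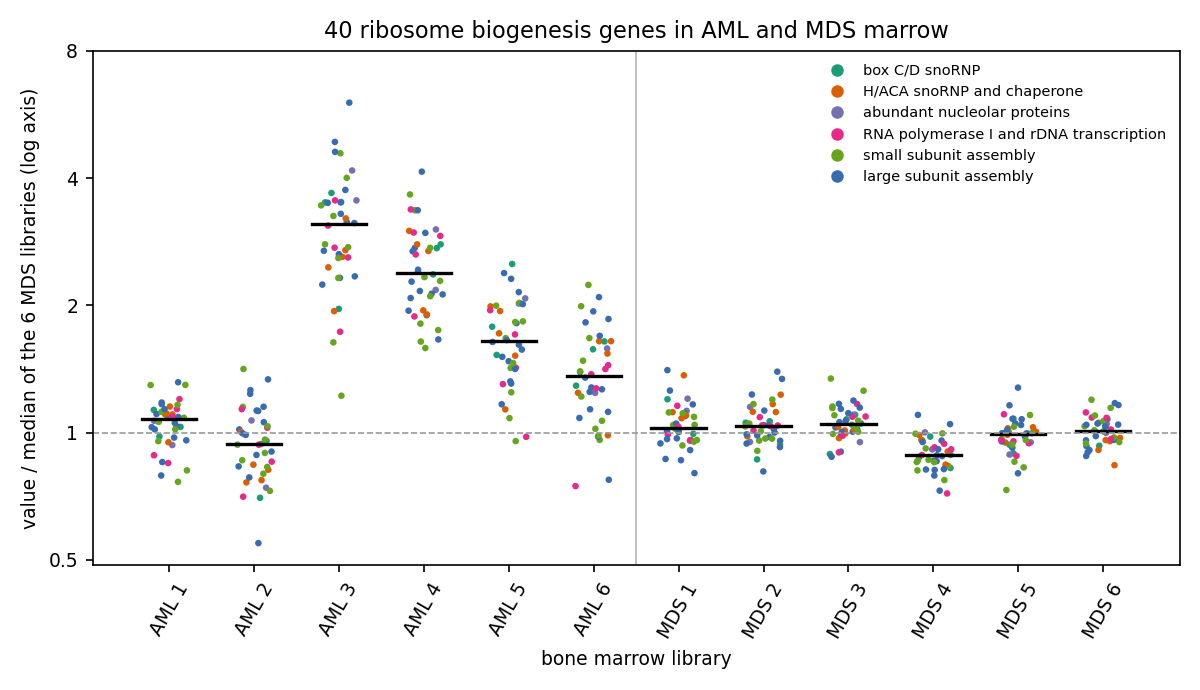
Each of the 40 genes in each marrow library, as its value divided by the median of the 6 MDS libraries on a log axis, coloured by role, with a bar at the median over the genes. The medians are 3.11 and 2.38 in AML 3 and 4, and 1.08 and 0.938 in AML 1 and 2, while the MDS libraries stay near 1.

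The AML libraries differed among themselves in a graded way. The median ratio of the 40 genes to the MDS median was 1.08, 0.938, 3.11, 2.38, 1.65 and 1.36 in AML 1 to 6. All 40 genes were above the highest MDS library in AML 3 and all 40 in AML 4, against 41.9% and 36.2% of the 11275 genes of the table, which the shares for the other libraries use as well. The count was 36 in AML 5 (36.3% of all genes) and 29 in AML 6 (34.8%), but 8 in AML 1 (22.1%) and 4 in AML 2 (31.6%). AML 3 was the highest AML library for 29 genes, AML 4 for 10 and AML 5 for 1, and AML 3 and 4 were the highest pair for 36. AML 1 and 2 were the lowest pair for 31. The order AML 3, 4, 5, 6 from high to low held for 23 of the 40. By role, the median ratio in AML 3 ran from 2.6 for the H/ACA genes to 3.86 for the nucleolar proteins, and in AML 4 from 2.19 for small subunit genes to 2.92 for RNA polymerase I genes. In AML 2 it was 0.817 for the H/ACA genes, and Rrp1b, at 0.548, was lowest. Over the 40 genes, the median SD of log2 values was 0.691 in AML and 0.146 in MDS, against 0.579 and 0.244 over all genes. Without AML 3, 4 and 5, a choice made after seeing the data, the median difference from MDS was 0.14 and 32 of 40 means were higher (53.8% of all genes). In that fit 1 gene, Imp3, was higher at an unadjusted p under 0.05, against 8.51% of all genes higher and 10.5% lower.

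The 40 genes took 0.256, 0.251, 1.102, 0.775, 0.578 and 0.466% of the summed values in AML 1 to 6, against 0.236 to 0.292% in MDS. Myc, the transcription factor known to drive ribosome biogenesis genes, had 40.37, 83.11, 247.1, 292.0, 176.7 and 150.3 in the same 6 AML libraries, against 48.95 to 68.24 in MDS (log2 difference 1.15, SE 0.40, limma adjusted p = 0.0970). The same 4 AML libraries that held high values of the 40 genes exceeded MDS for Myc, and AML 2 exceeded it as well. Mycn had 0.437, 0.270, 81.03, 5.081, 2.366 and 61.27 in AML 1 to 6, against 0.758 to 2.24 in MDS, which set AML 3 and 6 apart. Max, the partner of Myc, had 267.5, 171.3, 76.34, 117.3, 131.0 and 90.89 in AML 1 to 6, against 163.8 to 240.9 in MDS. Its log2 difference was -0.66 (SE 0.26, limma adjusted p = 0.128), and AML 3 to 6 lay below every MDS library. Among other genes of the Myc network, Mxd1 had a lower mean in AML (log2 difference -2.66) and Mga a higher one (0.79). Rrn3, the initiation factor that brings RNA polymerase I to the ribosomal DNA, had 35.61, 41.69, 87.25, 87.42, 74.65 and 64.93 in AML 1 to 6, against 37.2 to 51.1 in MDS (log2 difference 0.44, SE 0.23, adjusted p = 0.214). Ubtf, the upstream binding factor of the same promoter, averaged 204 ± 50.3 in AML and 201 ± 31.6 in MDS (SD, n = 6 each, adjusted p = 0.992).

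**Figure D3:**
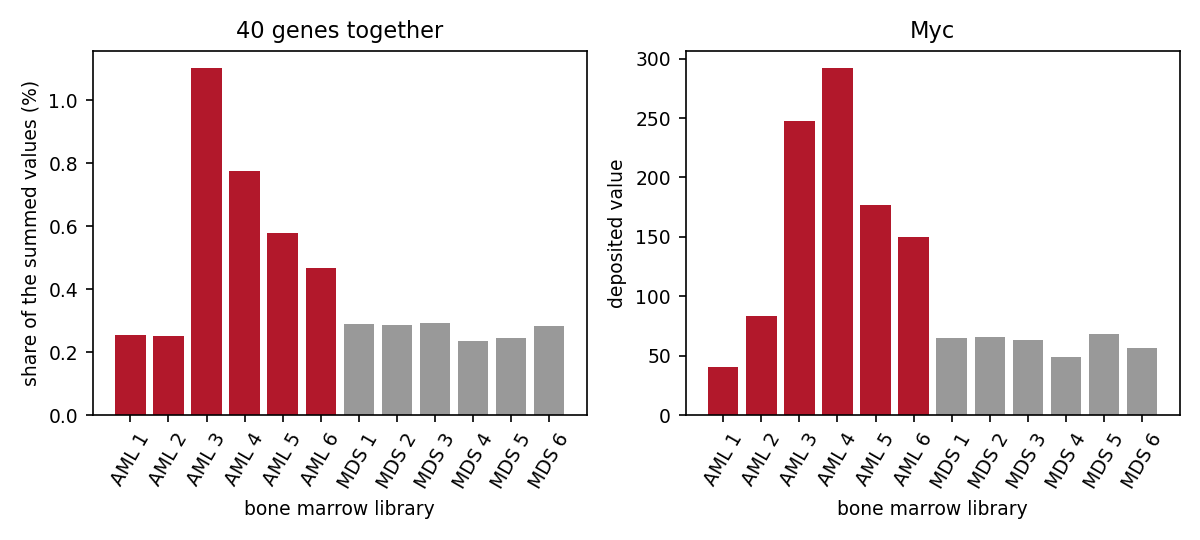
Share of each marrow library's summed values taken by the 40 genes together (left, in %) and the deposited value of Myc (right), one bar per library. AML 3 to 6 stand above all MDS libraries in both panels, at 0.466 to 1.102% and 150.3 to 292.0, and AML 1 stands at 0.256% and 40.37.

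Other genes of the pathway were counted in 5 further lists. Over all genes tested, 52.7% had a higher mean in AML, and limma called 0.994% higher and 2.21% lower. At an unadjusted p under 0.05, 15.4% of all genes were higher and 13.9% lower. Of 43 further small subunit genes, 41 had a higher mean in AML and 1 passed the test. That gene was Krr1, a processome protein, which rose in AML to 75.2 ± 8.79, against 54.6 ± 1.17 in MDS (SD, n = 6 each, log2 difference 0.45, SE 0.11, limma adjusted p = 0.0499), with no overlap. Of 46 further large subunit genes, 44 had a higher mean and none passed, with 26 at an unadjusted p under 0.05. The 12 other RNA polymerase I genes all had a higher mean and none passed (4 unadjusted). Of 23 exosome and RNase MRP genes, which trim and cut rRNA precursors, 18 had a higher mean and none passed (7 unadjusted), and of 21 RNA polymerase III genes, 18 had a higher mean and none passed (9 unadjusted, 1 of them lower). Ribosomal protein transcripts took 0.576 to 0.939% of summed values in AML, against 0.542 to 0.720% in MDS.

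Markers of cell types varied strongly between the same libraries. The 14 neutrophil markers all had lower means in AML, where 52.7% of all genes tested had higher ones, and none passed. Their sum was 128800, 23750, 492.9, 17890, 30380 and 9319 in AML 1 to 6, against 64890 to 108400 in MDS. AML 1, where the 40 genes were close to MDS, had the highest neutrophil sum of all, and AML 3 the lowest. In AML 2 the 40 genes had a median ratio to the MDS median of 0.938, but its neutrophil sum was below every MDS library. That sum was also below the sum of AML 5, where the median ratio was 1.65. All 13 erythroid markers had lower means in AML and 3 of them passed as lower, against 2.21% of all genes. The 13 summed to 375.9 to 7101 in AML and 8992 to 31720 in MDS. The 8 B cell markers summed to 2426 in AML 3, against 56.3 to 118 in the other AML libraries and 114.6 to 194.9 in MDS. The 16 T cell markers summed to 918.2, 3125, 5382 and 1129 in AML 3 to 6, against 71.51 to 162.9 in MDS, and Cd3e had 258.2 and 946.9 in AML 4 and 5 and 0.957 to 16.2 in the other AML libraries, against 4.983 to 12.13 in MDS. None of these markers was at 0 in any marrow library. The 15 mitosis genes, by contrast, summed to 1436 to 4803 in AML, against 3701 to 8303 in MDS, with 14 of 15 means lower in AML and none passing. The part of cell composition in the values of the 40 genes was not tested.

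Within AML, 4 libraries from ENU-exposed mice were set against the 2 without ENU. By limma, 0 of 40 genes passed (0.0355% of all genes higher, 0.0621% lower) and 0 had an unadjusted p under 0.05 (6.52% of all genes higher, 4.43% lower), and edgeR called 0 as well (0.0177% of all genes higher, 0.071% lower). The mean was higher with ENU for 10 genes and lower for 30 (52.4% of all genes higher), with a median of -0.11. None of the 40 was without overlap (5.09% of all genes higher, 4.41% lower). The unexposed libraries were AML 3, the highest AML library for 29 genes, and AML 2, one of the lowest pair for 31. Without AML 2, 11 genes were called lower (7.5% of all genes) and the median was -0.96, and without AML 3 the median was 0.68 with all 40 means higher (54.0% of all genes). In both fits the lone unexposed library is assumed to vary like the other groups. The smallest p by role belonged to Rrs1, an early large subunit factor, with 28.46, 52.42, 58.0 and 30.64 in exposed AML 1, 4, 5 and 6, against 34.01 and 94.33 in AML 2 and 3 (adjusted p = 0.715). Imp4, a processome protein, had 50.8 to 90.22 with ENU, against 53.46 and 141.7 without (adjusted p = 0.745). Gar1, Polr1c, Ncl and Fbl had the smallest p in their roles, with adjusted p values of 0.869 to 0.949. Noc2l differed most, by -0.48 (SE 0.54), with 97.83, 278.7, 137.4 and 160.7 in exposed libraries, against 95.6 and 500.8 in unexposed ones. Myc averaged 165 in both groups, Rrn3 65.7 with ENU and 64.5 without, and Ubtf 194 and 223.

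In LSK cells, 3 of the 12 libraries stood apart: WT 2, WT_X 3 and EAP 1, from 3 different groups. The deviation of genes from the mean of all LSK libraries ran with coding length at a Spearman correlation of -0.349, -0.417 and -0.529 in these 3 and of -0.024 to 0.507 in the other 9 (9191 genes). The 3 libraries were picked by this correlation, so their difference from the other 9 was bound to run with coding length. It did so at -0.695 across the 40 genes and at -0.497 over the 9191 genes. These values describe genes measured in the same libraries, which are not independent. The counts and medians by length below rest on the same choice and are no test of it. Of 18 genes with under 1500 coding bases, 8 were higher in the 3 libraries without overlap and none lower, and the median difference was 0.73 on the log2 scale. Of 14 genes with 1500 to 2500 bases the median was 0.03, with 3 higher and 2 lower, and of 8 genes with 2500 or more it was -0.61, with none higher and 3 lower. Over the 11740 genes of the table, all lengths together, 17.8% were higher and 18.2% lower without overlap.

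Nop16, a short large subunit factor, had 284.3 to 478.9 in the 3 libraries and 83.01 to 183.2 in the other 9. Nop56 had 1095 to 1481, against 433.7 to 910.2, and Nhp2 497 to 778.1, against 88.57 to 428.8. At the other end Utp20, with 8367 coding bases the longest of the 40, had 4.646 to 5.53 in the 3 libraries, against 8.06 to 16.1 in the others. Fbl (981 coding bases, 245.2 to 319.5 against 292.4 to 547) and Imp3 (552 coding bases) were short genes with negative differences, -0.62 and -0.46. EAP 2 differed in another way, with a ribosomal protein share of 2.06%, against 3.45 to 5.91% in the other LSK libraries, and Fos at 6064. The labels name no batch for these libraries.

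**Figure D4:**
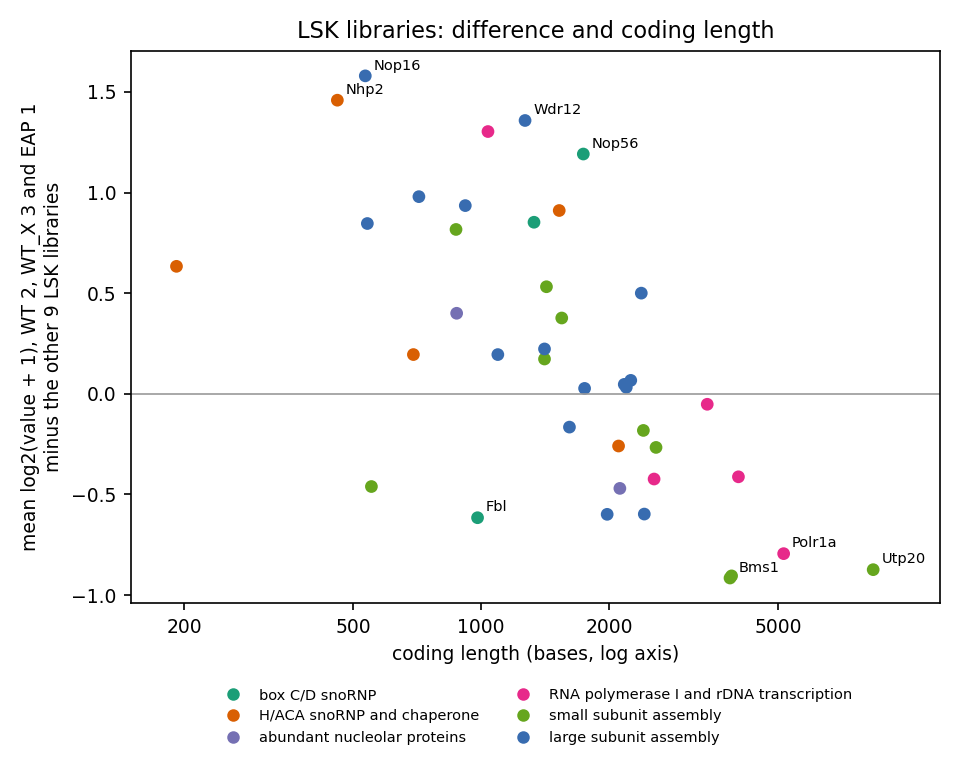
Difference of each of the 40 genes between WT 2, WT_X 3 and EAP 1 and the other 9 LSK libraries, on the log2(value + 1) scale, against coding length in bases on a log axis, coloured by role. The 3 libraries were picked by how all genes deviated with coding length. Nop16 and Nhp2 lie at 1.58 and 1.46 and Utp20 and Bms1 at -0.87 and -0.92, while Fbl is short and lies at -0.62.

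EAP cells set against WT_X cells differ by both haploinsufficiencies and the Trp53 shRNA before disease. By limma, 0 of 40 genes passed (0.0171% of all genes higher, 0.00853% lower) and 0 had an unadjusted p under 0.05 (1.65% of all genes higher, 1.96% lower). Means were higher for 18 of 40 (47.1% of all genes), and the median difference was -0.01. No gene was without overlap between the groups, where 3.8% of all genes were higher and 3.18% lower in that way. The smallest p belonged to Rrp12, an export factor of the small subunit, with 8.502, 19.84 and 38.32 in EAP, against 35.54, 36.76 and 30.09 in WT_X (log2 difference -0.82, SE 0.47, adjusted p = 1.0). Its low value was that of EAP 1, one of the libraries that stand apart. In the other roles the smallest p values, all with an adjusted p of 1.0, were those of Ncl, Gar1, Nop58, Mybbp1a and Rrp1b. Ncl had 248.8, 182.6 and 253.6 in EAP, against 231.9, 213.1 and 92.35 in WT_X, where the low value was WT_X 3. Nop58 had 791.6, 336.3 and 303.4 in EAP, against 290.1, 282.9 and 376.5 in WT_X, and its high value was again EAP 1. Without the 3 libraries, 2 against 2, 5 genes were higher and 7 lower without overlap, against 22.5% and 21.6% of all genes, and the median was -0.09.

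EAP_E cells set against WT_X cells add ENU to that contrast and share its WT_X libraries. By limma, 0 of 40 passed (0.0171% of all genes higher, 0.0% lower) and 1 had an unadjusted p under 0.05, against 1.79% of all genes higher and 1.42% lower at that level. That gene was Ncl, with 276.2, 364.0 and 296.1 in EAP_E and 231.9, 213.1 and 92.35 in WT_X (log2 difference 0.90, SE 0.32, limma adjusted p = 0.9996). Its groups did not overlap, and the lowest value was that of WT_X 3. Npm1 had 920.3, 1269 and 1059 in EAP_E, against 639.1, 727.0 and 787.5 in WT_X, also without overlap. In all, 8 genes were higher without overlap (Ncl, Npm1, Nolc1, Gar1, Pes1, Rrs1, Noc3l and Tsr1), against 9.9% of all genes, and 1 was lower (Nop2), against 8.61%. Nop2, an rRNA methyltransferase, had 149.8, 143.3 and 135.6 in EAP_E and 154.3, 165.6 and 212.3 in WT_X. Nolc1 had 133.1, 189.8 and 136.6 in EAP_E, against 116.5, 122.0 and 94.91 in WT_X. In the other roles the smallest p values were those of Fbl, Rrp1b, Tsr1 and Polr1b, which averaged 63.1 in EAP_E and 69.2 in WT_X. Means were higher for 28 of the 40 (51.3% of all genes) and the median was 0.15, against 0.01 over all genes. Without WT_X 3 and the 2 others that stand apart, 16 genes were higher without overlap (16.8% of all genes) and 1 lower (16.8%), 3 against 2, with a median of 0.18.

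EAP_E cells set against EAP cells differ by ENU exposure within 1 genotype. By limma, 0 of 40 passed (0.0% of all genes in either direction) and 0 had an unadjusted p under 0.05 (2.98% of all genes higher, 2.28% lower). Nolc1 had the smallest p, with 133.1, 189.8 and 136.6 in EAP_E and 98.35, 111.1 and 132.1 in EAP (log2 difference 0.42, SE 0.21, adjusted p = 0.909). Its groups did not overlap, by a margin of 1 unit between EAP_E 1 and EAP 3. Fbl had 547.0, 526.1 and 462.5 in EAP_E, against 319.5, 292.4 and 475.1 in EAP, and overlapped. Imp3, Ddx18, Ncl and Mybbp1a had the smallest p in their roles, and Ncl, Nolc1, Rrs1, Utp20 and Ddx18 were higher without overlap (5 of 40, against 6.68% of all genes). Ddx18 had 107.7, 139.2 and 107.9 in EAP_E, against 67.55, 92.47 and 105.3 in EAP. Nop2 was lower without overlap, the only 1 of 40 (5.98% of all genes), with 149.8, 143.3 and 135.6 in EAP_E against 184.3, 163.9 and 158.3 in EAP. Means were higher for 31 genes (52.9% of all genes) and the median was 0.13. Without the libraries that stand apart, EAP 1 among them, 18 genes were higher without overlap (20.5% of all genes) and 1 lower (20.6%), 3 against 2, with a median of 0.24. In that fit 11 genes were higher at an unadjusted p under 0.05, against 14.8% of all genes higher and 11.5% lower. Neutrophil markers (12 genes) summed to 7185 to 10250 in EAP_E, 2871 to 18250 in EAP and 3195 to 7197 in WT_X, and their part in these values was not tested.

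WT_X cells set against WT cells differ by transplantation with a control vector. By limma, 0 of 40 passed (0.0171% of all genes higher, 0.00853% lower) and 1 had an unadjusted p under 0.05, against 4.13% of all genes lower and 3.15% higher at that level. That gene was Tsr1, with 59.21, 64.28 and 57.4 in WT_X and 92.59, 85.76 and 90.36 in WT (log2 difference -0.56, SE 0.19, limma adjusted p = 0.544), and the groups did not overlap. With a term for the 3 libraries that stand apart, added after seeing the data, its adjusted p was 0.0494, where 1.24% of all genes were called lower. Without those libraries it was 0.0511. Ppan, with 209.0, 209.7 and 213.9 in WT_X, against 138.5, 219.0 and 138.7 in WT, passed as higher without those libraries (1.47% of all genes), where WT 2, which has its high WT value, is left out. Bop1 and Noc2l were higher without overlap (2 of 40, against 7.71% of all genes) and Ncl and Tsr1 lower (2 of 40, against 8.42%). Bop1 had 154.3, 158.2 and 166.2 in WT_X and 123.1, 124.2 and 109.1 in WT. In the other roles Fbl, Nop10 and Polr1a had the smallest p, with adjusted p values of 0.897, 0.973 and 0.973. Means were higher for 22 genes (49.9% of all genes), and the median was 0.05. Without the 3 libraries, 2 against 2, 21 genes were higher and 7 lower without overlap, against 31.3% and 34.6% of all genes. The 15 mitosis genes, none of which passed, all had higher means in WT_X, and summed to 1997, 1918 and 3001 in WT_X and 1340, 1622 and 1235 in WT.

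Myc ranged only from 799.1 to 1201 over the 12 LSK libraries, with means of 997 in EAP_E, 998 in EAP, 887 in WT_X and 884 in WT. Rrn3 averaged 49.8 in EAP_E, 46.0 in EAP, 51.0 in WT_X and 57.3 in WT, and Ubtf 91.1, 67.3, 71.6 and 75.6 in the same order. None of the 3 passed in any LSK comparison. By limma, none of the other small subunit, large subunit, RNA polymerase I, exosome and RNA polymerase III genes passed in the 4 LSK comparisons. Each list held 0 to 3 genes at an unadjusted p under 0.05 per comparison. Over all genes tested, 1.42 to 4.13% were at that level in each direction.

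In stromal cells, ENU given to the mouse 1 month earlier was set against the vehicle. By limma, 0 of 40 genes passed, with the replicate number as a block or without it (0.0% of all genes in either direction), and 0 had an unadjusted p under 0.05 without the block (0.976% of all genes higher, 1.6% lower). With the block, Nop10 alone was at that level, as lower, against 4.6% of all genes higher and 5.43% lower. Means were higher with ENU for 34 of 40 genes, against 48.7% of all genes, by a median of 0.13 and from -0.18 (Nop10) to 0.23 (Rrp12). Rrp12 had 12.17, 12.88 and 14.41 TPM in MSC_ENU, against 11.6, 11.68 and 9.882 TPM in MSC_mock (log2 difference 0.23, SE 0.13, adjusted p = 0.9998). It was the only 1 of the 40 without overlap, against 2.8% of the 12089 genes tested higher and 4.27% lower in that way. Nop10 had 81.26, 90.71 and 91.23 TPM in MSC_ENU and 90.37, 102.4 and 105.8 TPM in MSC_mock, and overlapped. Bop1 had 42.96, 47.04 and 41.04 TPM in MSC_ENU, against 41.53, 40.13 and 32.94 TPM in MSC_mock, where mock 3 was lowest. Fbl (124 and 108.5 TPM), Ddx21 (83.5 and 72.2 TPM) and Ncl (199 and 185 TPM), each as the mean in MSC_ENU and in MSC_mock, had the smallest p in their roles.

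Npm1, the most abundant of the 40 in these cells, had 1495, 1474 and 952.6 TPM in MSC_ENU and 1619, 1340 and 901.2 TPM in MSC_mock. Its low values were those of replicate 3 in both groups. Without MSC_mock 3 the median difference was 0.01 and 23 of 40 means were higher (43.3% of all genes). Mitosis genes summed to 1095, 1014 and 327.4 TPM in MSC_ENU and 998.4, 784.7 and 180.7 TPM in MSC_mock, so both libraries numbered 3 held few dividing cell transcripts. The 11 stromal markers summed to 2311 TPM in MSC_ENU 3 and 4386 TPM in MSC_mock 3, against 6869 to 8058 TPM in the other 4. The part of these differences in the values of the 40 genes was not tested. Myc averaged 49.96 TPM in MSC_ENU and 57.1 TPM in MSC_mock, Rrn3 48.3 and 44.3 TPM, and Ubtf 70.3 and 75.7 TPM, and none passed.

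**Figure D5:**
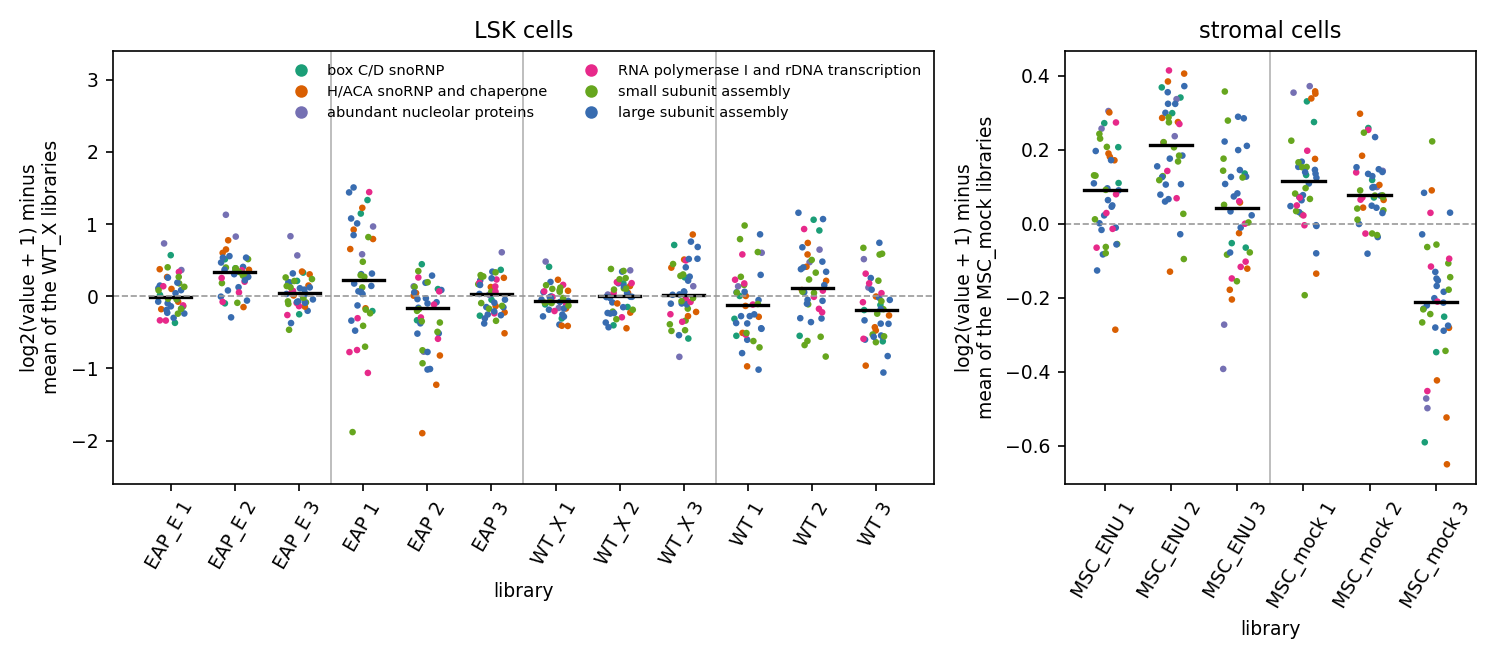
Each of the 40 genes in the LSK libraries (left, relative to the mean of the WT_X libraries) and the stromal libraries (right, relative to the mean of the MSC_mock libraries) on the log2 scale, coloured by role, with a bar at the median. The points of EAP 1, WT 2 and WT_X 3 spread both ways, and those of MSC_mock 3 lie lowest among the stromal libraries.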

How the data were processed

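The 40 genes, their roles, the pathway and marker lists and the tests were chosen with earlier results of these data known. Libraries were made with Illumina's stranded TruSeq mRNA chemistry from Trizol-extracted RNA, per the labels' protocols. Per the submitters' processing notes, bcl2fastq, FastQC, TopHat, SAMtools and edgeR were used with mm10 (no versions named). The sources used here name no counting program, annotation or scaling method. Values of the marrow and LSK tables, as deposited by the authors, are named CPM but sum to 803746 to 1437201 per library, which plain CPM would not, so they were handled as a normalised signal. The planned tests had assumed CPM, and their log scale was retained. The stromal values are TPM deposited by the authors, with sums of 924162 to 939600, so the table lacks part of each library. In marrow, 99.99 to 100% of values were whole multiples of a step, within 0.05 of a read, which gave a recovered read count per gene. These totals set the precision there, and depth is unknown elsewhere. In marrow, 155 rows that repeated a gene under an alias were merged.

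Each of 7 comparisons was tested across all genes on log2(value + 1), a scale that understates changes of low genes, by limma 3.58.1 under R 4.3.3 with lmFit, contrasts.fit and a trended eBayes, and a Benjamini-Hochberg threshold of 0.05. A gene entered the test when it reached 1 in a number of libraries equal to the size of the smaller group. All 4 LSK groups were fitted together, and AML by ENU was fitted with all 12 marrow libraries. edgeR 4.0.16 and DESeq2 1.42.0 were run on recovered counts. The limma and edgeR steps were tested on simulated data. Levels per kilobase used coding lengths of the principal GENCODE transcript for GRCm38. Python 3.11.15 with pandas 2.3.3 and numpy 2.4.6 made the summaries, and matplotlib 3.10.9 the figures.

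Named by rule were members past the threshold, the member with the smallest p in each role, up to 3 passing genes of each pathway list, Myc, Ubtf and Rrn3, the label checks, and the 3 highest and lowest members per length. Further members and markers were chosen after their values were seen. Same-numbered stromal libraries deviated together, at correlations of 0.501, 0.674 and 0.718, so the number was taken as a pairing there, seen in the data and not stated by the labels. The alternatives tried were another pseudocount (0.1), dropping the filter, rescaling by median of ratios, a replicate block, each library left out, and narrower groups. Fits without AML 3, 4 and 5, and fits without or with a term for 3 LSK libraries, were added after seeing the data.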

Additional observations from a re-analysis of the deposited data

How the results depend on the processing

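Across the alternatives, 797 of 837 values kept their direction and side of the threshold. In AML against MDS, leaving out 1 library gave 0 to 17 genes called higher, 17 without AML 1 and 5 without AML 2. DESeq2 called 25, and the median was 0.14 without AML 3, 4 and 5. For ENU within AML, leaving out 1 library gave 0 to 11 genes called lower (11 without AML 2) and medians of -0.96 to 0.68, at AML 2 and AML 3. Single genes reversed there, and their leave-one-out values ran from -1.20 to 0.24 for Rrs1, -1.09 to 0.30 for Imp4, -0.57 to 1.19 for Gar1, -0.74 to 0.43 for Polr1c, -1.47 to 1.02 for Ncl and -0.37 to 0.60 for Fbl, lowest without AML 2 and highest without AML 3. Without AML 1, Ncl was at 0.0019, and without AML 4, Fbl at -0.097. The EAP against WT_X median ran from -0.072 without EAP 1 to 0.12 without EAP 2, and without WT 2, WT_X 3 and EAP 1, Ncl (-0.047) and Gar1 (-0.052) reversed. In WT_X against WT, the median ran from -0.094 without WT 3 to 0.15 without WT 2, 1 gene (Ppan) was called higher without the 3 libraries, and 1 (Tsr1) lower with a term for them. In stromal cells Ncl ran from -0.13 without MSC_mock 3 to 0.32 without MSC_ENU 3. The cause was not tested in any of these.

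With the replicate number as a block, 0 of 40 genes passed in each comparison that allowed it, stromal cells included, and the AML against MDS median was again 0.67. The block changed no other call. No paired analysis was possible for ENU within AML because the numbers do not repeat between those libraries. LSK and marrow numbers did not pair, since not every pair correlated above 0.1. Depth is unknown for LSK and stromal libraries, so no counting error could be set on their low values.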
